A study of Mus musculus with 6 samples.

Results

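Selectin ligands, integrins and the integrin ligands of the immunoglobulin superfamily were examined in splenic germinal centre B cells, through 8 genes: Selplg, Itgb7, Itga4, Itgb1, Itgal, Itgb2, Icam1 and Icam2. They were found by symbol among the 23412 rows of the deposited count table, each in 1 row, and all 8 were among the 18767 genes that passed the filter on low counts. The genes were chosen by symbol with the fold changes and adjusted p-values of this same contrast, in these same libraries, already known. The differences between genotypes given for the 8 genes, and the calls of the fit beside them, are therefore descriptions of these libraries and not independent evidence.

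All mice carried the Cg1-cre(+/-) allele, which expresses Cre recombinase from the Cg1 locus and so acts in B cells that transcribe the gamma1 heavy chain. Controls are written DAF-Tg(+/+) in the protocol, without the floxed DAF-TM allele, and DAF-TM mice were Cg1-cre(+/-);DAF-TM(fl/fl), an allele that the series also writes R26-DAF-TM. Both groups received sheep red blood cells intraperitoneally, and B220+, GL7+, Fas+ cells were sorted 10 days later. The header of the deposited table writes the Cre genotype as (+/fl) where the labels write (+/-). No source used here gives the age of the mice or says whether 1 animal or a pool made up a library, so the spread is that between libraries and may be technical.

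The labels list 3 replicates per group. The third DAF-TM column repeated every count of the second, which is less than sampling noise would give, and the pair was used once as DAF-TM library 2. The comparison rested on 3 control libraries (7257339 to 12783965 counts) and 2 DAF-TM libraries (10684753 and 11280400 counts). Cd55, the mouse gene for DAF, stood between 23.5 and 34.4 CPM (TMM-normalised counts scaled to a common library size) in the controls and at 713 and 726 in DAF-TM cells. DAF-TM library 1 stands apart: it held both Xist (297 CPM) and transcripts of 4 Y-linked genes (289 CPM in sum). Each of the other 4 libraries held one of these at under 3 CPM. Xist was the low one in control libraries 2 and 3, whose Y-linked sums were 708 and 478 CPM. The Y-linked genes were low in control library 1 and DAF-TM library 2, where Xist reached 759 and 720 CPM. By these transcripts control library 1 and DAF-TM library 2 read as female, and control libraries 2 and 3 as male. Sex was thus not balanced between the groups. Values without DAF-TM library 1 are given for the 8 genes, for the listed genes with the lowest p-values and for the calls of the marker lists. That fit leaves 1 DAF-TM library, its spread comes from the controls alone and the lone library is assumed to vary as they do. A call lost in that fit therefore does not show that the difference is absent. The same fit sets a library that reads as female against controls of both sexes. The part of sex in any of the differences was not tested. The sorted cells carried germinal centre transcripts, with Bcl6, the transcription factor that defines these cells, between 214 and 313 CPM over the 5 libraries. Of 12 germinal centre B cell markers none passed the test between the genotypes, and 5 of them were lower in both DAF-TM libraries than in all controls, where 9.02% of all genes tested were.

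Leukocytes stop on a vessel wall or a stromal cell in steps. Selectins bind carbohydrate on carriers such as PSGL-1, the product of Selplg, and integrins, which are pairs of an alpha and a beta chain, then hold the cell to ligands such as ICAM-1, VCAM-1 and MAdCAM-1. Germinal centre B cells use LFA-1 (Itgal with Itgb2) and VLA-4 (Itga4 with Itgb1) to hold on to follicular dendritic cells and T cells. The alpha4 chain can also pair with the beta7 chain (Itgb7), which makes the receptor for MAdCAM-1 on gut vessels.

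The beta7 chain was a member called higher in DAF-TM cells and its alternative, beta1, was not, so the sequences before their start sites are shown with that of their common partner alpha4. They come from RefSeq (GRCm38.p6) and run 5′ to 3′ from 250 to 11 bases before the annotated start. The windows lie at chr15:102231946-102232185 on the minus strand for Itgb7, at chr8:128685404-128685643 on the plus strand for Itgb1 and at chr2:79255176-79255415 on the plus strand for Itga4. Capitals mark CACCC and its reverse complement GGGTG, the core that Kruppel-like factors such as KLF2, a regulator of lymphocyte trafficking genes, bind.
Itgb7: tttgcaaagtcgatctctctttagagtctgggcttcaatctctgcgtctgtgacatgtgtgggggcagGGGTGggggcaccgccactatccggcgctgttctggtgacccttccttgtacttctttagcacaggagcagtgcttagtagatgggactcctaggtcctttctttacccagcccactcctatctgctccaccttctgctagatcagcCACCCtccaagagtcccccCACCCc
Itgb1: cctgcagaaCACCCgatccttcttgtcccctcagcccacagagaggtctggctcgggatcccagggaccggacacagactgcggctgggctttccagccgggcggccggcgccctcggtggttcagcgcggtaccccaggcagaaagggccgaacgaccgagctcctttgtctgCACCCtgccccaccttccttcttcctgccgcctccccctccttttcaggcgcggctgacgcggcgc
Itga4: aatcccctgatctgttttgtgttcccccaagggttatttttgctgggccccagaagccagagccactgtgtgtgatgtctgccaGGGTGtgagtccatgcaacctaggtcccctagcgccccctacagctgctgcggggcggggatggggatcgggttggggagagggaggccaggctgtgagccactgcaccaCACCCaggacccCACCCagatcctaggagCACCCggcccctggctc
The Itgb7 window held the motif 3 times, the Itgb1 window 2 times and the Itga4 window 4 times, counting both strands. At least 1 match was present in 50.6% of 32817 RefSeq windows of the same length, at least 2 in 19.8%, at least 3 in 6.4% and at least 4 in 1.9%. These windows were not matched for base composition. The motif, the length of the windows and the use of basic transcripts for exon lengths below were chosen after values had been seen. When the motif was chosen, the level of Klf2 was already known. Klf2 stood between 16.1 and 23.5 CPM in the controls and at 63.2 and 35.7 in DAF-TM libraries 1 and 2. All windows end short of the start because that of Itgb7 otherwise ran into an annotated exon, and a further match in Itgb7 lies in the bases left out. A match describes these letters only. The table of RefSeq windows matched 4 of the 8 genes, and no window is shown for Selplg.

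Per length, the LFA-1 beta chain and the beta1 chain were the most abundant of the 8 transcripts. The levels in this paragraph are RPKM, that is, TMM-normalised CPM divided by the exon length in kb, with exons from the GENCODE M21 basic transcripts. In control cells Itgb2 stood at 120 ± 10.2 (SD, n = 3), Itgb1 at 91.3 ± 15.4, Icam2 at 80.8 ± 4.21 and Icam1 at 67.8 ± 1.45. Itgal followed at 28.1 ± 3.97, Selplg at 13.3 ± 2.07, Itgb7 at 8.35 ± 0.732 and Itga4 at 7.97 ± 1.23. Over all 5 libraries Itgb2 was at percentile 97.3 and Itga4 at percentile 71.1 of 21229 genes with a length, so all 8 lay in the upper part of the range. Most steps in this order held in all 5 libraries. Itgb1 was above Icam2, and Itgb7 above Itga4, in 4 of the 5. The means of these neighbours, and those of Selplg and Itgb7, differed by less than the SD of the more variable gene over the 5 libraries. With the exons of all annotated transcripts the lower end changed its order, since Selplg then had 4.27 kb of exon in place of 1.86 and a control level of 5.77, below the 8.09 of Itgb7. Icam1 then stood at 39.4 and Icam2 at 54.4, with their places in the order kept.

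**Figure D1:**
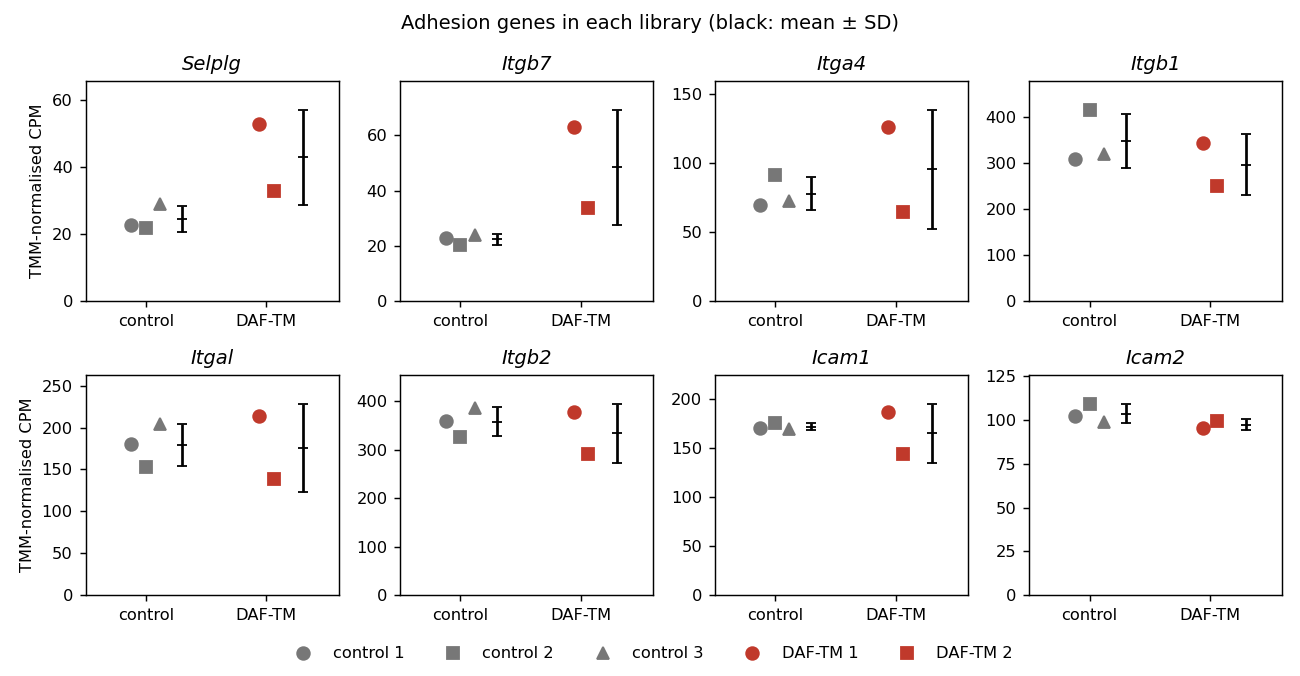
TMM-normalised CPM (vertical axes, each from 0) of the 8 genes in 3 control libraries (grey) and 2 DAF-TM libraries (red), with mean ± SD in black. Selplg and Itgb7 are higher in both DAF-TM libraries than in every control, and the 6 other genes overlap between the groups.

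Of the 8 genes, 2 were called higher in DAF-TM cells, Itgb7 and Selplg, none was called lower and 6 did not pass (edgeR's quasi-likelihood test, Benjamini-Hochberg adjusted over all genes). Over all genes tested 0.41% were called in either direction and 0.373% were called higher. The median log2 fold change of the 8 was -0.04, beside 0.03 over all genes tested, and 3 of the 8 were positive, beside 53.9% of all genes. The same 2 genes were the members above every control in both DAF-TM libraries, a position held by 11.3% of all genes tested. Since 8 genes were chosen with this contrast known, nothing is read from these shares. A different share of cells with a transcript and a different level of it per cell cannot be told apart in such bulk libraries.

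Selplg encodes PSGL-1, the mucin-like carrier of the glycans that P-selectin, and under some conditions the other selectins, bind. The gene lies at chr5:113818536-113832644 (GRCm38, minus strand, GENCODE ENSMUSG00000048163.13). It stood at 22.9, 21.995 and 29.1 CPM in control libraries 1 to 3 and at 52.9 and 32.8 CPM in DAF-TM libraries 1 and 2. Both DAF-TM libraries were above all controls, but library 2 exceeded the highest control by a small margin. Raw counts ran from 213 to 587, which gives a counting error of 4.13% to 6.85% of the value. Selplg rose 1.75-fold from 24.6 ± 3.85 (SD, n = 3) to 42.9 ± 14.2 CPM (SD, n = 2; log2 fold change 0.80, SE 0.18, edgeR adjusted p = 0.00433). Without DAF-TM library 1 its log2 fold change was 0.41 (adjusted p = 0.563), and without control library 1 it was 0.76 (adjusted p = 0.132); the gene was called in neither. Those fits called 0.0717% and 0.232% of all genes. Over the 5 fits that left out 1 library the adjusted p ran from 0.000898 to 0.563. With DESeq2, where 0.193% of genes were called, the value was 0.77 and the gene was not called (adjusted p = 0.343), nor was it with limma-voom (0.78, adjusted p = 0.0813). A limma-voom fit with robust variances, added after the first had been seen, called it (adjusted p = 0.0362).

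Itgb7 encodes the beta7 chain, which pairs with alpha4 or, in epithelial lymphocytes, with alphaE. The gene lies at chr15:102215995-102231944 (GRCm38, minus strand, ENSMUSG00000001281.10). It stood at 22.99, 20.2 and 24.0 CPM in the 3 controls and at 63.1 and 33.7 CPM in DAF-TM libraries 1 and 2. The controls lay close together, within 1.19-fold, and the DAF-TM libraries lay 1.87-fold apart, both above all controls. Itgb7 rose 2.17-fold, from 22.4 ± 1.96 (SD, n = 3) to 48.4 ± 20.8 CPM (SD, n = 2; log2 fold change 1.11, SE 0.18, edgeR adjusted p = 1.30e-06), and it ranked 16 of all genes by p-value. When DAF-TM library 1 was left out, the estimate was 0.59 on the log2 scale and the gene was not called (adjusted p = 0.518). In the other 4 fits that left out 1 library it ran from 1.04 to 1.497 and the gene was called, as it was with DESeq2 (1.09, adjusted p = 0.0206) and limma-voom (1.05, adjusted p = 0.00467).

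Itga4 encodes the alpha4 chain shared by VLA-4 and the alpha4beta7 integrin. The gene lies at chr2:79255426-79333123 (GRCm38, plus strand). It stood at 69.5, 91.5 and 72.4 CPM in the controls, and DAF-TM library 1 was above all of them at 126 CPM while library 2 was below all of them at 64.8 CPM. The groups therefore overlapped, and the difference did not pass (log2 fold change 0.29, SE 0.17, edgeR adjusted p = 0.930). Without DAF-TM library 1 the value was -0.27 and without library 2 it was 0.69. Exons of Cerkl on the opposite strand cover 8.04% of the exonic bases of Itga4 (all annotated transcripts), and Cerkl itself stood between 4.31 and 6.88 CPM.

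Itgb1 encodes the beta1 chain, partner of alpha4 in VLA-4 and of many other alpha chains. It stood at 310, 416 and 319 CPM in the controls and at 344 and 250 CPM in DAF-TM cells. Control library 2 held the highest value and DAF-TM library 2 the lowest, and the groups overlapped (log2 fold change -0.23, SE 0.17, edgeR adjusted p = 0.945). Its estimate was -0.49 without DAF-TM library 1 and -0.022 without DAF-TM library 2, and it lay between -0.31 and -0.09 when 1 control was left out.

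The balance of the chains that can pair with alpha4 was read within each library, where the scaling between libraries drops out. For every 100 counts of Itgb1 there were 7.42, 4.86 and 7.52 counts of Itgb7 in the controls and 18.4 and 13.5 in DAF-TM cells. The groups did not overlap, and the mean ratio was 2.41 times as high in DAF-TM cells, between 2.04 and 2.79 times when any 1 library was left out. For every 100 counts of Itga4 there were 33.1, 22.1 and 33.1 counts of Itgb7 in the controls and 50.2 and 52.1 in DAF-TM cells, which were close to each other although the levels of both genes were not. The counts of Itgb1 for every 100 of Itga4 were 446, 455 and 441 in the controls and lower in the DAF-TM libraries, at 273 and 386. Per length, Itgb7 made up 3.80% ± 0.411 (SD, n = 3) of the summed Itgb1, Itgb2 and Itgb7 levels in control cells and 8.46% ± 1.86 (SD, n = 2) in DAF-TM cells. The ratios and the share with Itgb7 contain the difference of Itgb7 itself. That of Itgb1 to Itga4 does not, and neither of its genes passed the test. None of these ratios has a test of its own.

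**Figure D2:**
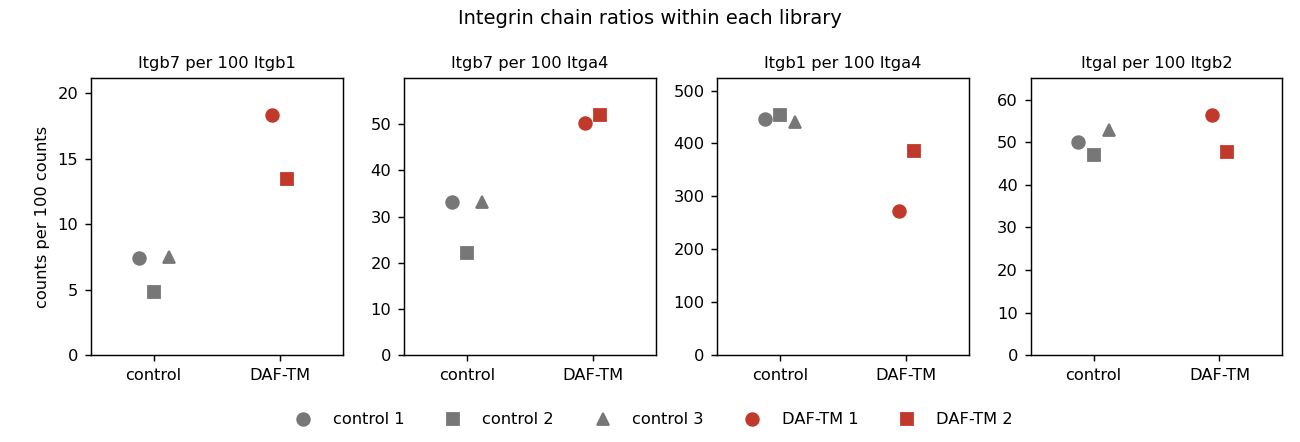
Counts of 1 integrin chain for every 100 counts of another (vertical axes, each from 0) in each library, controls in grey and DAF-TM libraries in red. The 2 ratios with Itgb7 are higher, and Itgb1 for every 100 Itga4 is lower, in both DAF-TM libraries than in every control, and Itgal for every 100 Itgb2 overlaps.

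Neither LFA-1 chain passed the test. Itgal, the alphaL chain (chr7:127296260-127335138, plus strand), stood at 180, 153 and 204 CPM in the controls and at 213 and 139 CPM in DAF-TM cells. The 2 DAF-TM libraries lay outside the control range on opposite sides, above and below it, and the log2 fold change was -0.02 (SE 0.17, edgeR adjusted p = 0.991). Itgb2, the beta2 chain shared with the complement receptor integrins (chr10:77530252-77565708, plus strand), stood at 360, 326 and 387 CPM and at 378 and 291 CPM. Its lowest value was again in DAF-TM library 2 (log2 fold change -0.10, SE 0.17, edgeR adjusted p = 0.967). Leaving out DAF-TM library 1 gave log2 values of -0.37 for Itgal and -0.31 for Itgb2. For every 100 counts of Itgb2 the libraries held 49.96, 47.0 and 52.8 counts of Itgal in the controls and 56.5 and 47.7 in DAF-TM cells, which overlapped.

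The ICAM genes encode the ligands of LFA-1, and B cells carry them as well as the integrin. Icam1 (chr9:21015985-21028817, plus strand), whose product is induced on activated cells, stood at 170, 176 and 169 CPM in the controls, the narrowest control range of the 8 genes at 1.04-fold. DAF-TM library 1 was above it at 187 CPM and library 2 below it at 144 CPM (log2 fold change -0.06, SE 0.17, edgeR adjusted p = 0.983). An antisense gene, Gm47079, shares 11.7% of the exonic bases of Icam1 (all annotated transcripts). Icam2 (chr11:106377656-106388075, minus strand), a ligand present on resting leukocytes and endothelium, stood at 102, 109 and 98.9 CPM and at 95.3 and 99.6 CPM. It was the member with the smallest gap between the DAF-TM libraries (log2 fold change -0.09, SE 0.17, edgeR adjusted p = 0.970). When DAF-TM library 1 was not used, the log2 value was -0.26 for Icam1 and -0.063 for Icam2. For every 100 counts of Icam2 there were 161 to 171 counts of Icam1 in the controls, and 196 and 144 in DAF-TM cells, on opposite sides of the control range.

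The 2 DAF-TM libraries differed from each other in one direction for most members. DAF-TM library 1 exceeded library 2 in 7 of the 8 genes, by 1.30-fold for Icam1 up to 1.94-fold for Itga4, and Icam2 was the exception at 0.957-fold. Without library 1 the estimate of those 7 genes was lower, and none of the 8 was called in that fit, which has a single DAF-TM library.

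**Figure D3:**
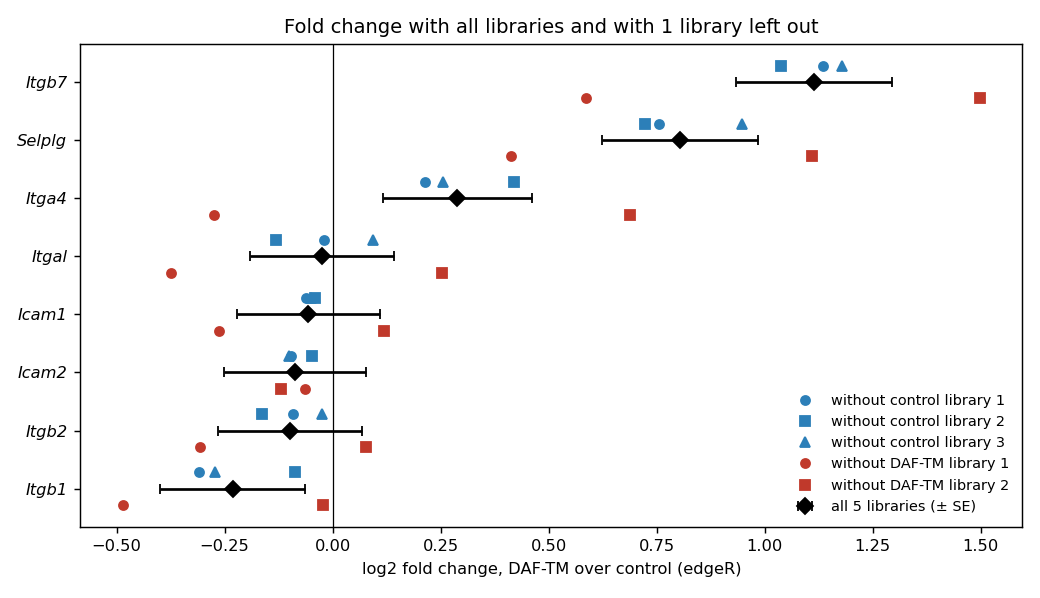
edgeR log2 fold change of DAF-TM over control (horizontal axis) for each gene with all 5 libraries (black, ± SE) and with 1 library left out (blue, a control; red, a DAF-TM library). Itgb7 and Selplg stay above 0 in every fit, and every gene but Icam2 has its lowest value without DAF-TM library 1.

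Likeness between genes was measured as the root mean square difference of their log2 CPM over the 5 libraries, after each gene was centred on its own mean. Among the 8 genes Itgal and Itgb2, the LFA-1 chains, were the closest pair at 0.097, followed by Itgb2 and Icam1 at 0.098. Selplg and Itgb7 were 0.18 apart, and Itgb7 and Itgb1 were the farthest pair at 0.68. Among 8631 named genes with a mean of at least 10 CPM, those nearest to Selplg were Sbk1 (0.099), the cell cycle gene Ccnd2 (0.0998) and the surface peptidase gene Dpp4 (0.12). Those nearest to Itgb7 were Ckap4 (0.13), the interferon-inducible GTPase gene Irgm1 (0.14) and Itgam (0.16), the alphaM chain that pairs with the beta2 chain. These are descriptions over 5 libraries, of which DAF-TM library 1 was high in each of these genes. Without it the log2 fold change was 0.20 for Sbk1, 0.34 for Ccnd2, 0.65 for Dpp4, 0.32 for Ckap4 and 0.26 for Irgm1.

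Among 79 other genes of leukocyte adhesion, listed by role, 1 rose, none fell and 78 did not pass, beside 0.41% called over all genes. Their median log2 fold change was 0.17, beside 0.03 over all genes. This median was 0.27 without DAF-TM library 1 and 0.086 without library 2, beside 0.046 and -0.019 over all genes. Many of the 79 stood under 10 CPM, and these medians were not set beside those of genes of like level. Of the 79, 13 (16.5%) were above every control in both DAF-TM libraries, beside 11.3% of all genes. In both DAF-TM libraries 4 (5.06%) were below every control, beside 9.02% of all genes. The gene that rose was Vcam1, which encodes the ligand of VLA-4. It stood at 2.44, 3.14 and 3.96 CPM in the controls and at 16.0 and 10.3 CPM in DAF-TM cells, all low values (4.16-fold, log2 fold change 2.06, SE 0.32, edgeR adjusted p = 4.79e-07). It is also a marker of splenic macrophages, and without DAF-TM library 1 it was not called (log2 fold change 1.70, adjusted p = 0.0652).

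Of 21 other integrin chains none passed, and the median log2 fold change was 0.39. Itgam, which like Itgal pairs with Itgb2, had the lowest p of them (log2 fold change 0.87, SE 0.24, edgeR adjusted p = 0.0676), at 7.90 to 11.5 CPM in the controls and 22.6 and 13.6 in DAF-TM cells. Its log2 value was 0.45 without DAF-TM library 1, and without DAF-TM library 2 it was 1.19 and was called (adjusted p = 0.0114). Itgav, the alphav chain, was lower in both DAF-TM libraries, at 72.8 and 65.4 CPM against 82.9 to 98.8 in the controls, without passing (log2 fold change -0.43, SE 0.17, edgeR adjusted p = 0.614). Itga6 had a log2 value of 0.51, Itga5 of 0.71 and Itgax of 0.74, none past the threshold. These were 0.43, 1.01 and 0.28 without DAF-TM library 1, and that of Itgav was -0.52. Many chains in this group stood under 10 CPM, where the SE reached 0.51 for Itgb8. Several of these low chains were higher in DAF-TM library 2 than in library 1, and others, such as Itgax, were lower. The median of the group was not set beside that of genes of like level.

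Of 12 other integrin ligands Vcam1 rose and 11 did not pass. Madcam1, the ligand of alpha4beta7, stood at 2.55 to 5.73 CPM in the controls and at 4.51 and 5.41 in DAF-TM cells. Of 13 selectins and genes for the enzymes and scaffolds of their ligands none passed (median 0.19). Tpst2, an enzyme that sulfates the tyrosines of PSGL-1, stood at 23.8, 24.0 and 31.8 CPM in the controls, at 51.5 in DAF-TM library 1 and at 22.6 in library 2, and its log2 value of 0.48 turned to -0.23 without library 1. Without library 2 it was 0.96 and the gene was called (adjusted p = 0.00768). Gcnt1, which builds the branched glycans of PSGL-1, had a log2 value of -0.30. The endothelial selectins Selp and Sele stood under 5 CPM in all libraries.

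Of 30 genes for the activation of integrins and their link to the cytoskeleton none passed and the median was 0.03. Tln1, the talin that binds beta tails, had a log2 value of 0.00 (SE 0.17) and Fermt3, the kindlin of blood cells, one of -0.13. Of the 30, 5 (16.7%) were above every control in both DAF-TM libraries, beside 11.3% of all genes, and 2 (6.67%) were below, beside 9.02%. The 5 were the adaptors Skap1 (log2 value 1.02, SE 0.33, edgeR adjusted p = 0.261), Fyb (0.71) and Apbb1ip (0.13), the exchange factor Rasgrp2 (0.44) and vinculin, Vcl (0.38). The 2 below were Rap1a, a small GTPase that activates integrins (log2 value -0.34, SE 0.17, edgeR adjusted p = 0.858), and the integrin tail binder Itgb1bp1 (-0.12). Without DAF-TM library 1 the log2 value was 1.35 for Skap1, 0.59 for Fyb, 0.28 for Rasgrp2 and -0.34 for Rap1a, which was at -0.052 without control library 2. Of the 3 linkers of PSGL-1 to actin, Rdx had a log2 value of 0.50, Ezr of 0.00 and Msn, the most abundant of them in CPM, of -0.17, none past the threshold. Rdx was at 0.12 without DAF-TM library 1.

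**Figure D4:**
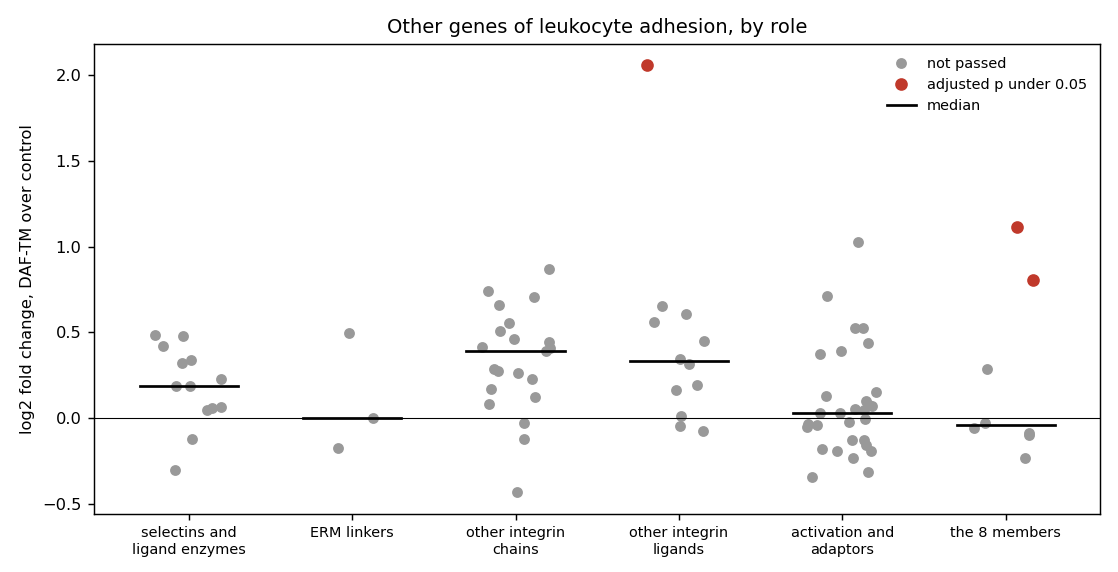
edgeR log2 fold change (vertical axis) of 79 other adhesion genes by role and of the 8 genes (right), each point 1 gene, red where the adjusted p is under 0.05, with the median of each group as a black line. Vcam1 is the red point among the other ligands at 2.06, and the 2 red points at the right are Itgb7 at 1.11 and Selplg at 0.80.

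Sums of natural killer, T cell, macrophage and dendritic cell markers were higher in both DAF-TM libraries than in every control. These leukocytes also carry PSGL-1 and beta7 or beta2 integrins. Sums of neutrophil markers, another list of leukocyte genes, went the other way and are given below. Of 12 natural killer cell markers 9 rose, where 0.373% of all genes tested were called higher. The list summed to 41.2, 44.9 and 60.2 CPM in the controls and to 159 and 94.1 CPM in DAF-TM libraries 1 and 2. Of 12 T cell markers 2 rose, Cd3d and Tcf7, with sums of 35.4 to 48.2 CPM and of 80.6 and 76.8 CPM. Of 11 macrophage markers 4 rose, among them Vcam1 and Csf1r, with sums of 41.1 to 45.5 CPM and of 100.4 and 72.2 CPM. Of 9 dendritic cell markers tested Siglech rose, with sums of 92.7 to 96.3 CPM and of 121 and 103 CPM. The macrophage marker Adgre1 had no row under that symbol. No other marker of these lists was at 0 in all libraries. Cd3e, for example, stood at 1.78 to 3.55 CPM in the controls and at 5.50 and 4.06 in DAF-TM cells. Without DAF-TM library 1 none of the markers of these 4 lists was called, while the sums of library 2 stayed above every control. Their part in the differences of Selplg and Itgb7 was not tested.

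Lists of other cell types gave the following values, again beside 0.373% called higher over all genes tested. The sums of 8 endothelial markers were 90.8 to 101 CPM in the controls and 105 and 103 CPM in DAF-TM cells, with none past the threshold, and platelet sums stayed under 22 CPM. Neutrophil markers ran from 81.6 to 259 CPM in the controls and stood at 28.6 and 72.9 CPM in the DAF-TM libraries, with none past the threshold. Of 5 plasma cell markers Prdm1 rose, and it was not called without DAF-TM library 1. Of 7 follicular B cell markers other than Cd55, 3 rose (Ccr7, Klf2 and S1pr1), and the list summed to 962 to 1206 CPM in the controls and to 1221 and 887 CPM in DAF-TM libraries 1 and 2. Without DAF-TM library 1 Ccr7 alone of these 3 was called. With Cd55 the sums were 985 to 1240 CPM in the controls and 1935 and 1613 CPM in DAF-TM cells. The part of any of these in the differences of the 8 adhesion genes was not tested.

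**Figure D5:**
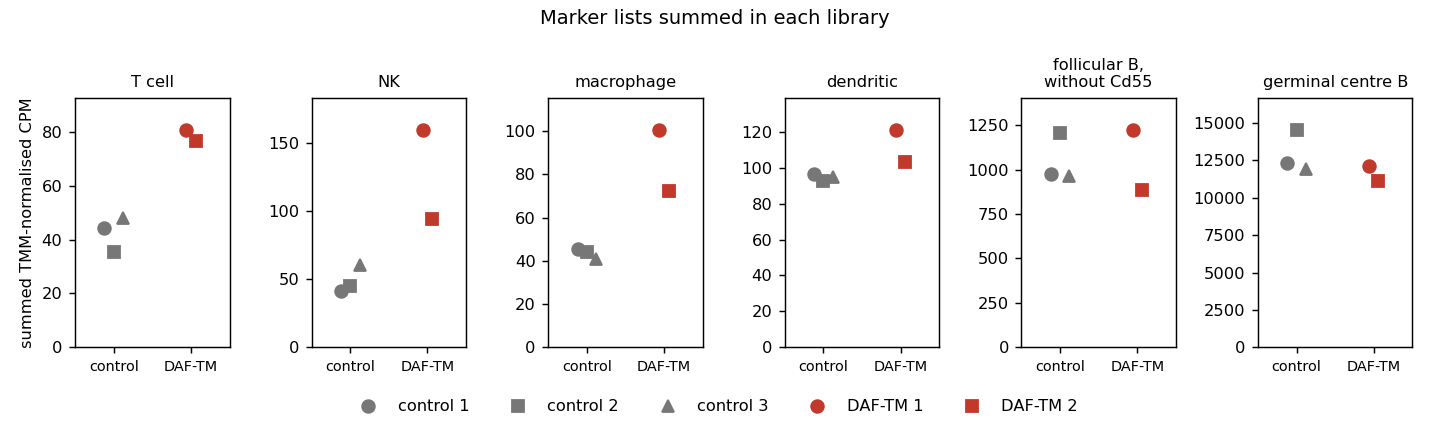
Summed TMM-normalised CPM (vertical axes, each from 0) of marker lists in each library, controls in grey and DAF-TM libraries in red. Natural killer, T cell, macrophage and dendritic cell sums are higher in both DAF-TM libraries than in every control, and the sums of follicular B cell markers without Cd55 and of germinal centre markers overlap.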

How the data were processed

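RNA of 6 labelled samples, 3 per group, was measured. Libraries were made from 10 ng of total RNA with SMART-Seq v4 and oligo-dT priming, 12 to a lane, with single-end reads of 100 nt and no molecular identifiers, per the labels' protocols. The values are raw counts for each symbol as the authors deposited them, and the build is mm10 per the file headers. The submitters' processing notes name bcl2fastq, HISAT2 and featureCounts. Versions, annotation, strand setting and handling of shared reads: not given in the sources used here. Genes with overlapping or antisense partners are therefore uncertain. In 27 rows (at most 0.266% of a library) a date stood for the symbol, and these stayed in.

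The test was edgeR 4.0.16 in R 4.3.3, with TMM factors, filterByExpr, robust glmQLFit, a two-sided glmQLFTest and Benjamini-Hochberg adjustment over 18767 genes at 0.05. Adjusted p-values come from it unless another tool or a left-out library is named. Each gene's spread, on 3 residual degrees of freedom, was drawn strongly to that of all genes (median prior degrees of freedom 1153). Counts were simulated with the spread of the fitted trend, so genes of like level had like spread. In them the procedure called 22% of 1.5-fold, 82% of 2-fold and 100% of 4-fold changes, with 7 false calls. Spread particular to a gene was not simulated, so these rates may not hold in the data. Genes of low level were given no change there. No library that stands apart, as DAF-TM library 1 does, was simulated. A gene that did not pass can therefore still differ.

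The members and lists were chosen with earlier results of these data known. Named genes were the 8 members, the called adhesion genes filled up to 12 by p-value, and the 3 genes nearest in pattern to each called member; other list genes in the text were picked with their values in view. Single genes of the lists that are not reported here were left out of the lists, their sums and counts, and stayed in the fit. The alternatives were RLE or upper-quartile factors, other low-count filters (none, or at least 1 CPM in 3 libraries), DESeq2 1.42.0 on all genes, limma-voom (limma 3.58.1), the replicate number as a block, and each library left out. DESeq2 on the filtered genes and limma-voom with robust variances were added after the calls of the first versions had been seen and set beside an earlier analysis of these data.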

Additional observations from a re-analysis of the deposited data

How the results depend on the processing

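The number of genes called, 77 with all libraries, was 39 with upper-quartile factors, 27 with DESeq2 and 51 with limma-voom, and ran from 14 without DAF-TM library 1 to 118 without DAF-TM library 2; each of these fits has 1 DAF-TM library, assumed to vary like the controls. It was 43 without control library 1 and 44 without control library 3. Of the 8 members 1 (Itgb7) was called with DESeq2 and 1 (Itgb7) with limma-voom. Leaving out libraries, members called ran from 0 without DAF-TM library 1 to 2, with 1 without control library 1. In the versions chosen after seeing the data, DESeq2 on the filtered genes called 32 genes and 1 member, and limma-voom with robust variances called 49 genes and 2 members. The call of Selplg under limma-voom thus turned on that choice (adjusted p = 0.0813 in the first version, 0.0362 in the added one). Called genes of the adhesion list ran from 0 without DAF-TM library 1 to 3 without DAF-TM library 2 (Tpst2, Itgam and Vcam1), and 1 (Vcam1) was called in every other fit.

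Members that were not called changed sign in some fits. With upper-quartile factors, which moved the median of all genes from 0.03 to 0.10, Itgal had a log2 fold change of 0.027 and Icam1 one of 0.0078. Leaving out libraries, Itgal ran from -0.37 to 0.25 (0.092 without control library 3), Itgb2 from -0.31 to 0.077, Icam1 from -0.26 to 0.12 and Itga4 from -0.27 to 0.69. Itgb1 (-0.49 to -0.022) and Icam2 (-0.12 to -0.047) kept their sign. Of the adhesion list, Tpst2 ran from -0.23 to 0.96. The causes were not tested. Replicate numbers are only shared. The deviations of same-numbered libraries had correlations over 9049 genes of -0.259 and -0.0918. With 2 DAF-TM libraries these deviations are mirror images of each other, so the correlations cannot settle whether the libraries were paired. With the replicate block, in which control library 3 had no partner, 61 genes and 2 members were called, and Itgal stood at 0.050. The lowest counts of the called members were 213 for Selplg and 176 for Itgb7.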
